A study of Drosophila melanogaster with 13 samples.

Results

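The large chaperones and heat shock regulators described here are 10 genes of the cytosolic and mitochondrial protein folding machinery of Drosophila melanogaster. They comprise the heat shock transcription factor gene Hsf, the Hsp70 genes Hsp68, Hsc70-4 and Hsc70-5, the Hsp90 gene Hsp83, the Hsp60 gene Hsp60A, and the co-chaperone genes Hop, DnaJ-1, Droj2 and stv. They were chosen by symbol and by role, and the near-identical Hsp70A and Hsp70B copies were left out of the set. The choice was made with earlier results of these data known. All 10 had a row in both deposited tables, out of 8291 gene rows in the siARMI table and 8297 in the siYB table. Of them, 9 were found by symbol and 1 through a synonym: Hop was read as the row Stip1, the Hsp70-Hsp90 organising protein. That reading was chosen after the rows were seen, because RefSeq also lists Hop as a synonym of the kinase gene hop, which was not used.

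RNA was measured in ovarian somatic cells (OSC), a line cultured from the somatic follicle cells of the fly ovary, of wildtype genotype. Cells were transfected with siRNA against Armitage (siARMI, 3 libraries), against Yb (siYB, 3 libraries) or against luciferase, a gene that flies lack (siLUC, 3 libraries), at 0 and 48 h and harvested at 96 h. All groups were kept at 27 °C and 2.5% CO2, and no heat shock is named in the labels. Armitage and Yb act in the piRNA pathway, which silences transposons in these cells, and the study compared each knockdown with the shared siLUC control. The labels' protocol gives poly(A) selection, while the titles of all 9 siRNA libraries bear a tag, RZ, left unexplained in the labels. Histone transcripts that mostly lack poly(A) tails were abundant in the authors' deposited siARMI table, with mean counts of 26295 for His2A:CG33808 and 11707 for His3:CG33803, so how the RNA was selected is uncertain. Another 4 libraries of labelled RNA and its input were not analysed here.

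Molecular chaperones bind unfolded proteins and help them fold. Hsp70 proteins take up unfolded chains in a cycle driven by ATP: J-domain proteins deliver the substrate and start ATP hydrolysis, and exchange factors such as BAG-domain proteins release it. The adaptor Hop passes clients on to Hsp90, and Hsp60 folds proteins inside mitochondria. Hsf, the single heat shock factor of the fly, binds the promoters of heat shock genes and raises their transcription when unfolded proteins accumulate.

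The 2 deposited tables give, for each gene, the normalised read count averaged over the 6 libraries of a comparison, a log2 fold change of knockdown over siLUC with its error, a p-value and an adjusted p. They give no value for single libraries, so neither the spread within a group nor the overlap of groups can be shown, and the depth of each library is unknown. A gene is called here when its Benjamini-Hochberg adjusted p in the authors' deposited table is under 0.05. The targeted transcripts were lower in their own tables, with log2 fold changes of −1.92 ± 0.07 for armi in siARMI cells and −2.17 ± 0.51 for fs(1)Yb in siYB cells in the authors' deposited tables. All 8 markers of follicle cells asked for had rows in the siARMI table, with a summed mean count of 23398, against 238 for 8 germ cell markers, 172 for 3 muscle markers, 362 for 5 markers of neurons and glia and 754 for 3 markers of hemocytes and fat body. Of those, 4 follicle markers were called higher and 4 lower, 2 germ cell markers higher and 1 lower, and 2 hemocyte and fat body markers higher and 1 lower. Muscle had 1 marker called higher, and neurons and glia had 1. Their part in the results below was not tested. In such bulk RNA, fewer cells of a type and less RNA per cell cannot be told apart.

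Armitage knockdown raised 5 of the 10 transcripts and lowered 1, and the remaining 4 were not called. The 5 that rose were Hsp68, DnaJ-1, Droj2, Hsp83 and Stip1, all of the cytosolic machinery, and the 1 that fell was Hsp60A, of the mitochondrial matrix. Among all 8289 gene rows tested, 14.9% were called higher and 13.4% lower. All 10 genes had a mean count above 1000, where more rows are called: of the 1290 gene rows that abundant, 24.1% were called higher and 24.2% lower, a comparison chosen after the data were seen. That mean covers both groups. Hsp68 and DnaJ-1 lay above 1000 only through siARMI cells, their implied means in siLUC cells being 687 and 952. The 5 of 10 called higher lies above both 14.9% and 24.1%. The 1 of 10 called lower is near the 13.4% of all gene rows and below the 24.2% of abundant ones. Both are given as a description without a test. The genes were chosen with earlier results of these data known, so these shares cannot show an excess over the background. The median log2 fold change of the 10 genes was 0.19, and that of all gene rows was −0.01.

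**Figure D1:**
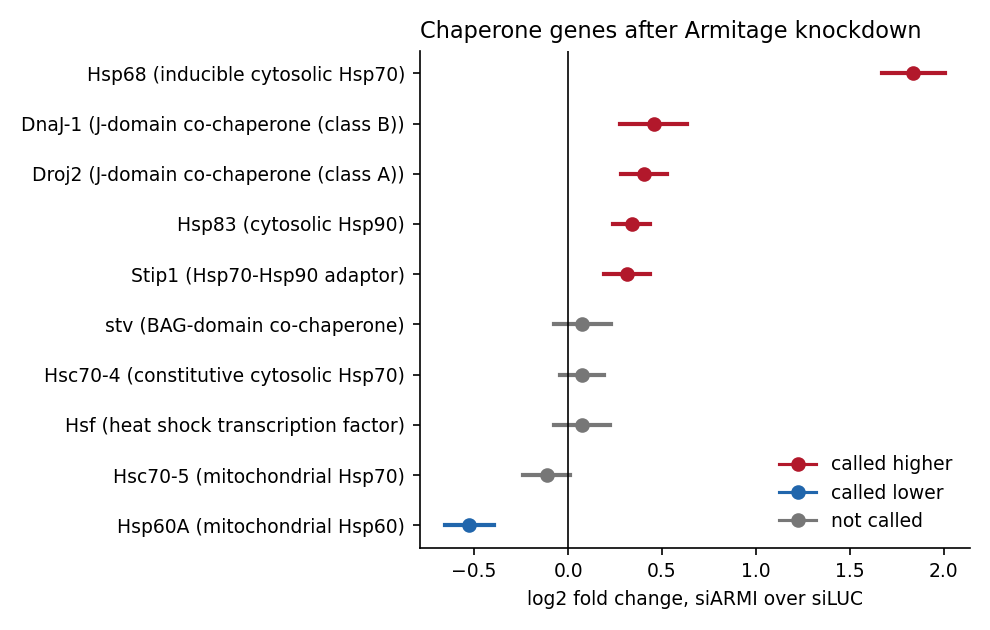
Log2 fold change of siARMI over siLUC for the 10 genes, with points for the deposited estimate, bars for its 95% interval and colour for the call. Hsp68 at 1.84 stands apart from the 4 other genes called higher, which lie between 0.31 and 0.46, and Hsp60A at −0.53 is the only gene called lower.

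Hsf, the regulator, did not pass the test. The authors' deposited table gives it a mean count of 1156 and a log2 fold change of 0.07 ± 0.08 (Benjamini-Hochberg adjusted p = 0.513). The 95% interval of that change, −0.08 to 0.22, spans a decrease and an increase. The group means implied by the deposited mean count and fold change were 1186 normalised counts in siARMI cells and 1127 in siLUC cells. These concern the transcript of Hsf only. The activity of the protein, which is known to be set mainly by its binding state and modification, was not measured. Hsf lies on chromosome 2R (FBgn0001222; 18130303 to 18134634, minus strand, BDGP6.54) and has 4 annotated transcripts of 7 to 9 exons.

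Hsp68, an Hsp70 that is made mainly under stress, rose more than any other of the 10. In the authors' deposited table it had a mean count of 1571 and a log2 fold change of 1.84 ± 0.09 (Benjamini-Hochberg adjusted p = 3.02e-100), a 3.57-fold increase with a 95% interval of 3.18 to 4.01. Its fold change was the 165th highest of 8291 gene rows. The implied group means were 2455 normalised counts in siARMI cells and 687 in siLUC cells. Hsp68 is a gene of 1 exon on chromosome 3R (FBgn0001230; 24055080 to 24057310, minus strand, BDGP6.54). It shares 13 exonic bases, 0.583% of its exonic length, with the antisense genes CG6000 and lncRNA:CR44097, and the authors' deposited table lists CG6000 at a mean count of 15.7. Whether the counting used strand is not stated, so reads in the shared bases cannot be told apart.

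Hsc70-4, the main constitutive Hsp70 of the fly cytosol, gave a different picture. Its mean count of 34307 in the authors' deposited table was the 4th highest of all gene rows. Its log2 fold change there was 0.08 ± 0.06 (95% interval −0.04 to 0.19; Benjamini-Hochberg adjusted p = 0.396), so it did not pass the test, and an increase above 1.14-fold lies outside its interval. Per kb of exon, a scale on which genes of different length can be compared, Hsp68 reached 1100 normalised counts in siARMI cells and 308 in siLUC cells, while Hsc70-4 stood at 12964 in siARMI cells and 12299 in siLUC cells. The implied level of Hsp68 was thus 8.49% of that of Hsc70-4 in siARMI cells and 2.50% in siLUC cells. Hsc70-4 lies on chromosome 3R (FBgn0266599; 15242687 to 15246614, plus strand, BDGP6.54), with 7 transcripts of 1 or 2 exons.

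The mitochondrial Hsp70, Hsc70-5, helps draw proteins into the matrix and fold them there. In the authors' deposited table it had a mean count of 3123 and a log2 fold change of −0.11 ± 0.06 (95% interval −0.24 to 0.01; Benjamini-Hochberg adjusted p = 0.180), so it did not pass. The implied means were 3000 normalised counts in siARMI cells and 3245 in siLUC cells. It lies on chromosome 2R (FBgn0001220; 14252598 to 14256192, minus strand, BDGP6.54), with 2 transcripts of 6 exons each.

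Hsp83, the cytosolic Hsp90, which matures kinases, receptors and other clients, rose. The authors' deposited table lists it at a mean count of 30678, the 5th highest of all gene rows, with a log2 fold change of 0.34 ± 0.05 (Benjamini-Hochberg adjusted p = 2.78e-10). The ratio was 1.26, with a 95% interval of 1.18 to 1.35. A small ratio on so abundant a transcript was a large number of counts. The implied means of 34257 in siARMI cells and 27099 in siLUC cells differ by 7157 normalised counts, and per kb of exon the difference was 2418 for Hsp83, against 792 for Hsp68. Hsp83 lies on chromosome 3L (FBgn0001233; 3192969 to 3197059, plus strand, BDGP6.54), with 2 transcripts of 2 exons, and shares 15 exonic bases (0.507%) with the antisense gene CG14966, whose mean count in the authors' deposited table was 69.0.

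Stip1, the adaptor that links Hsp70 and Hsp90, rose by nearly the same ratio. The authors' deposited table gives a log2 fold change of 0.31 ± 0.06 at a mean count of 2925 (Benjamini-Hochberg adjusted p = 3.25e-06), a ratio of 1.24. The implied level per kb of exon was 1602 normalised counts in siARMI cells and 1289 in siLUC cells. Relative to Hsp83 on this scale, Stip1 stood at 13.8% in siARMI cells and 14.1% in siLUC cells. Stip1 lies on chromosome 2L (FBgn0024352; 295122 to 297449, plus strand, BDGP6.54) and has 1 transcript of 4 exons.

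Both J-domain co-chaperones rose. DnaJ-1, the fly relative of the human DNAJB1 protein and itself a heat shock gene, is listed in the authors' deposited table at 0.46 ± 0.09 on the log2 scale with a mean count of 1129 (Benjamini-Hochberg adjusted p = 3.72e-06), a ratio of 1.37. Droj2, of the DNAJA class, is listed in the authors' deposited table at 0.41 ± 0.06 with a mean count of 2883 (Benjamini-Hochberg adjusted p = 7.47e-10), a ratio of 1.33. The change of DnaJ-1 exceeded that of Droj2 by 0.05 ± 0.11 on the log2 scale, with a 95% interval of −0.17 to 0.27. The implied level of DnaJ-1 was 604 normalised counts per kb in siARMI cells and 441 in siLUC cells, and that of Droj2 was 1385 in siARMI cells and 1045 in siLUC cells, so Droj2 was the more abundant of the pair in both groups. DnaJ-1 lies on chromosome 3L (FBgn0263106; 5750029 to 5752189, minus strand, BDGP6.54) and Droj2 on chromosome 3R (FBgn0038145; 13382106 to 13385283, plus strand, BDGP6.54).

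Starvin (stv), a BAG-domain exchange factor for Hsp70 that acts in stress recovery and selective autophagy, did not pass the test. It is listed in the authors' deposited table at 0.08 ± 0.08 on the log2 scale with a mean count of 2429 (95% interval −0.07 to 0.23; Benjamini-Hochberg adjusted p = 0.501). The implied means were 2493 normalised counts in siARMI cells and 2365 in siLUC cells. It lies on chromosome 3L (FBgn0086708; 13477541 to 13483515, plus strand, BDGP6.54), with 7 transcripts of 3 or 4 exons.

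Hsp60A, the main mitochondrial chaperonin, fell. In the authors' deposited table it stands at −0.53 ± 0.07 on the log2 scale with a mean count of 10054, the 51st highest of all gene rows (Benjamini-Hochberg adjusted p = 1.53e-13). The ratio was 0.695, with a 95% interval of 0.634 to 0.761. The implied means were 8243 normalised counts in siARMI cells and 11865 in siLUC cells. Per kb of exon, Hsp60A stood at 3.24 times the level of Hsc70-5 in siARMI cells and 4.31 times in siLUC cells. Hsp60A lies on chromosome X (FBgn0015245; 11108482 to 11112308, plus strand, BDGP6.54), with 2 transcripts of 3 exons.

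**Figure D2:**
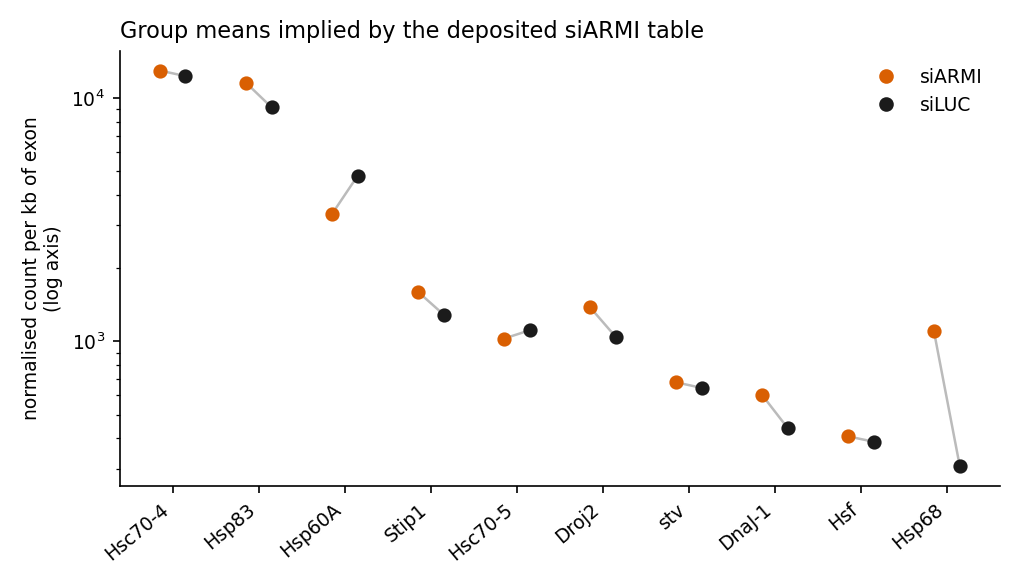
Normalised count per kb of exon (log axis) implied for siARMI and siLUC cells by the mean count and fold change of the deposited siARMI table, for the 10 genes in descending order of the siLUC level; no error can be drawn because the table holds no single libraries. Hsp68 was the lowest of the 10 in siLUC cells at 308 and stood at 1100 in siARMI cells, while Hsc70-4 and Hsp83 stayed above all the others in both groups.

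In siLUC cells the implied levels per kb of exon ran, in descending order, through Hsc70-4 (12299), Hsp83 (9155), Hsp60A (4784), Stip1 (1289), Hsc70-5 (1111), Droj2 (1045), stv (644), DnaJ-1 (441), Hsf (387) and Hsp68 (308). In siARMI cells the order was Hsc70-4 (12964), Hsp83 (11573), Hsp60A (3324), Stip1 (1602), Droj2 (1385), Hsp68 (1100), Hsc70-5 (1027), stv (679), DnaJ-1 (604) and Hsf (407). Hsp68 was 10th in siLUC cells and 6th in siARMI cells, whereas the 4 most abundant kept their places. These levels carry no error, so neighbours in the order were not tested. Summed over the 10 genes, the implied counts were 94678 in siARMI cells and 85831 in siLUC cells, a difference of 10.3%.

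In the order of fold changes, 3 of the 9 neighbouring pairs differed. Each neighbouring pair in the order was compared by subtracting the log2 fold changes of the authors' deposited table and combining their errors, with a normal test (two-sided) and Benjamini-Hochberg adjustment over the 9 pairs. Hsp68 exceeded DnaJ-1 by 1.38 ± 0.13 (adjusted p = 3.21e-27). The 3 pairs among DnaJ-1, Droj2, Hsp83 and Stip1 did not pass, with adjusted p between 0.708 and 0.971. Stip1 exceeded stv by 0.24 ± 0.10 (adjusted p = 0.0495), which lies at the threshold. The pairs among stv, Hsc70-4, Hsf and Hsc70-5 did not pass, the smallest adjusted p being 0.137 for Hsf against Hsc70-5. Hsc70-5 exceeded Hsp60A by 0.41 ± 0.09 (adjusted p = 4.15e-05). The pairs were set by the order itself, and the genes share libraries, so their errors are not independent. With a correlation of 0.5 between them 4 pairs passed, Hsf against Hsc70-5 being added (adjusted p = 0.0192). A positive correlation narrows the error of a difference, so this setting could only add pairs and could not show that a pair is fragile.

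**Figure D3:**
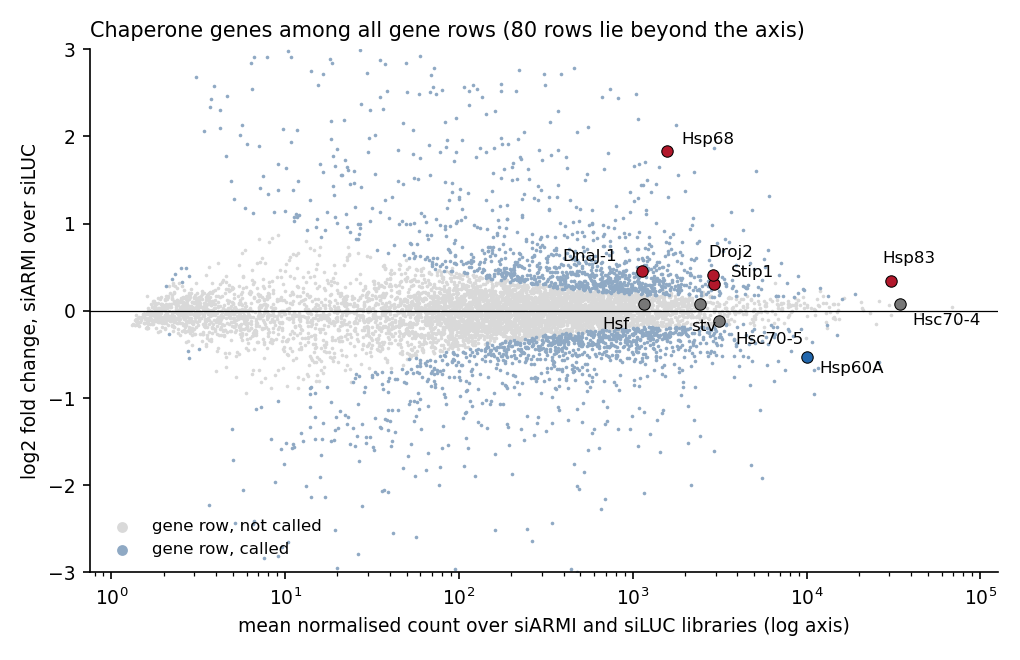
Log2 fold change of siARMI over siLUC against mean normalised count (log axis) for all gene rows, with the 10 genes marked in red where called higher, blue where called lower and grey where not called; 80 rows lie beyond the axis limit of 3. The 10 genes lie at mean counts from 1129 to 34307, in the range where small changes are called.

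None of the 10 genes was the nearest gene row of another. Neighbours were taken as the nearest gene rows that do not overlap the gene. This left out CG6000 at Hsp68 and CG14966 at Hsp83, neither called (Benjamini-Hochberg adjusted p = 0.137 and 0.108 in the authors' deposited table). Of the 12 neighbours on either side of the 6 called genes, 1 was called: CG2061, at 13535 bases from Hsp60A, listed in the authors' deposited table at −0.50 ± 0.12 on the log2 scale (Benjamini-Hochberg adjusted p = 9.28e-05). Both neighbours of Hsp68 had negative estimates that did not pass, −0.29 ± 0.13 for Pisd (adjusted p = 0.0585) and −0.19 ± 0.10 for SMC1 (adjusted p = 0.117, both Benjamini-Hochberg) in the authors' deposited table. Around all 10 genes, 4 of 20 neighbours (20.0%) were called, against 28.3% of all gene rows in either direction, so neither count lies above the background. This comparison of neighbours was chosen after the data were seen.

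The other genes of the chaperone system were read from 8 lists by family, whose symbols were chosen with earlier results of these data known. None of these lists holds the 10 genes themselves. The shares of list rows called are to be read against 14.9% higher and 13.4% lower over all gene rows, and 24.1% and 24.2% over those with a mean count of at least 1000. They are descriptions without a test. The list of small heat shock proteins, a family that holds unfolded proteins without ATP, had 8 rows. All 8 were called higher, with a median log2 fold change of 1.27. Their range in the authors' deposited table ran from 0.70 ± 0.12 for CG14207 and 0.86 ± 0.10 for Hsp27 to 1.68 ± 0.09 for Hsp67Ba and 2.49 ± 0.33 for CG4456. Hsp68, at 1.84, thus lay above Hsp67Ba and below CG4456, the only row of that list with a larger change. CG4456 had a mean count of 59.3 and was matched through the synonym Hsp67Bb, and its protein family was not checked. The count of 8, the median and the upper end of the range may thus include a gene outside the family. Every other row of the list lay below Hsp68. No other of the 10 genes reached the smallest value of that list.

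Of 10 rows of other Hsp70 and Hsp110 genes, 3 were called higher (30%), 1 lower (10.0%) and 6 not, with a median of 0.09. The 3 called higher were stress-inducible Hsp70 copies, with log2 fold changes in the authors' deposited table of 1.65 ± 0.55 for Hsp70Ba, 1.11 ± 0.10 for Hsp70Aa and 0.54 ± 0.21 for Hsp70Bb. The further copies Hsp70Bc (0.27 ± 0.39) and Hsp70Bbb (0.02 ± 0.40) did not pass there. How reads are split among these near-identical copies is uncertain, so their single values are too. CG7182 was lower at −0.23 ± 0.09 in the authors' deposited table. The Hsp110 gene Hsc70Cb and the endoplasmic reticulum Hsp70 gene Hsc70-3 had 0.14 ± 0.06 and 0.05 ± 0.07 there and did not pass.

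Among 11 rows of the Hsp90 family and its co-chaperones, 4 were called higher (36.4%, against 14.9% of all gene rows), 2 lower (18.2%, against 13.4%) and 5 not, with a median of 0.03. The share called lower is near the background. The myosin chaperone gene unc-45 (0.56 ± 0.10) and the adaptor gene Sgt1 (0.41 ± 0.14) had the largest increases in the authors' deposited table. Trap1, the mitochondrial Hsp90, was lower at −0.42 ± 0.08 (Benjamini-Hochberg adjusted p = 6.63e-07), as was the co-chaperone gene Dpit47 at −0.28 ± 0.12 (adjusted p = 0.0497), both in the authors' deposited table. The endoplasmic reticulum Hsp90 gene Gp93 (−0.04 ± 0.06) and p23 (−0.03 ± 0.08) did not pass there. Hsp83 and Trap1, the cytosolic and mitochondrial Hsp90 genes, thus lay on opposite sides of 0. For Hsp70 the picture was mixed. The cytosolic Hsp68 was called higher, but the cytosolic Hsc70-4 (0.08 ± 0.06) and the mitochondrial Hsc70-5 (−0.11 ± 0.06) were not called.

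J-domain genes mostly did not pass. Of 26 rows, 4 were called higher (15.4%, against 14.9% of all gene rows), 2 lower (7.69%, against 13.4%) and 20 not. The share called higher is near the background, and the median of −0.01 is also that of all gene rows. The extremes in the authors' deposited table were CG5001 at 1.14 ± 0.85, on a mean count of 10.0, and l(3)80Fg at 0.67 ± 0.17 among those higher, and CG7872 at −0.51 ± 0.09 and CG8531 at −0.27 ± 0.08 among those lower. CG10565 (−0.16 ± 0.07) and Sec63 (0.08 ± 0.08), the most abundant of those not called, did not pass there. Among 7 other exchange and adaptor factors, 2 were called higher (28.6%), 1 lower (14.3%) and 4 not, with a median of 0.17. HIP (0.51 ± 0.15) and CG10973 (0.50 ± 0.21) rose and Roe1, the exchange factor of mitochondrial Hsp70, fell at −0.40 ± 0.16 in the authors' deposited table. The abundant CG7546 (0.13 ± 0.08) and Sgt (0.12 ± 0.08) did not pass there. HIP has a close relative in HIP-R, so its value is uncertain where reads could be split between them.

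The cytosolic chaperonin, its prefoldin helper and mitochondrial Hsp10, listed together with viaf, which is none of these, made up 16 rows. Of them, 4 were called higher (25.0%, against 14.9% of all gene rows and 24.1% of abundant ones), none lower and 12 not, with a median of 0.08. By the unadjusted p of the authors' deposited table, 5 rows were under 0.05 and higher and 2 under 0.05 and lower. The 4 called higher in that table were Pfdn5 (0.31 ± 0.13), viaf (0.26 ± 0.10), CCT3 (0.19 ± 0.06) and CCT2 (0.17 ± 0.06), while CCT5 (0.08 ± 0.06) and CCT6 (−0.02 ± 0.06) did not pass. No chaperonin row other than Hsp60A was called lower.

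Of 10 rows of the mitochondrial import motor and mitochondrial proteases, 4 were called lower (40%, against 13.4% of all gene rows and 24.2% of abundant ones), none higher (against 14.9%) and 6 not, with a median of −0.15. By the unadjusted p of the authors' deposited table, 4 rows were under 0.05 and lower and 1 under 0.05 and higher. The 4 called lower in that table were the protease genes Afg3l2 (−0.47 ± 0.07), Lon (−0.39 ± 0.09) and Spg7 (−0.34 ± 0.09), and Roe1, which also stands in the list of exchange factors. The abundant YME1L (−0.09 ± 0.08) and ClpX (0.17 ± 0.08) did not pass there. Of the 2 mitochondrial genes among the 10, Hsp60A fell and Hsc70-5 did not pass.

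Finally, of 9 rows of heat shock response partners and stress-induced genes, 4 were called higher (44.4%), 1 lower (11.1%) and 4 not, with a median of 0.26. The deacetylase gene HDAC6 (0.31 ± 0.10) and the polyubiquitin gene Ubi-p5E (0.28 ± 0.06) were the highest of those called in the authors' deposited table. GstD1, a glutathione transferase gene of the oxidative stress response, was lower at −0.26 ± 0.07, and Ubi-p63E was higher at 0.26 ± 0.06, both in the authors' deposited table. Reads of the ubiquitin repeats may be shared among ubiquitin genes, which makes their values uncertain. The oxidative stress factor gene cnc (−0.08 ± 0.08) and Sirt1 (−0.08 ± 0.08) did not pass there.

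**Figure D4:**
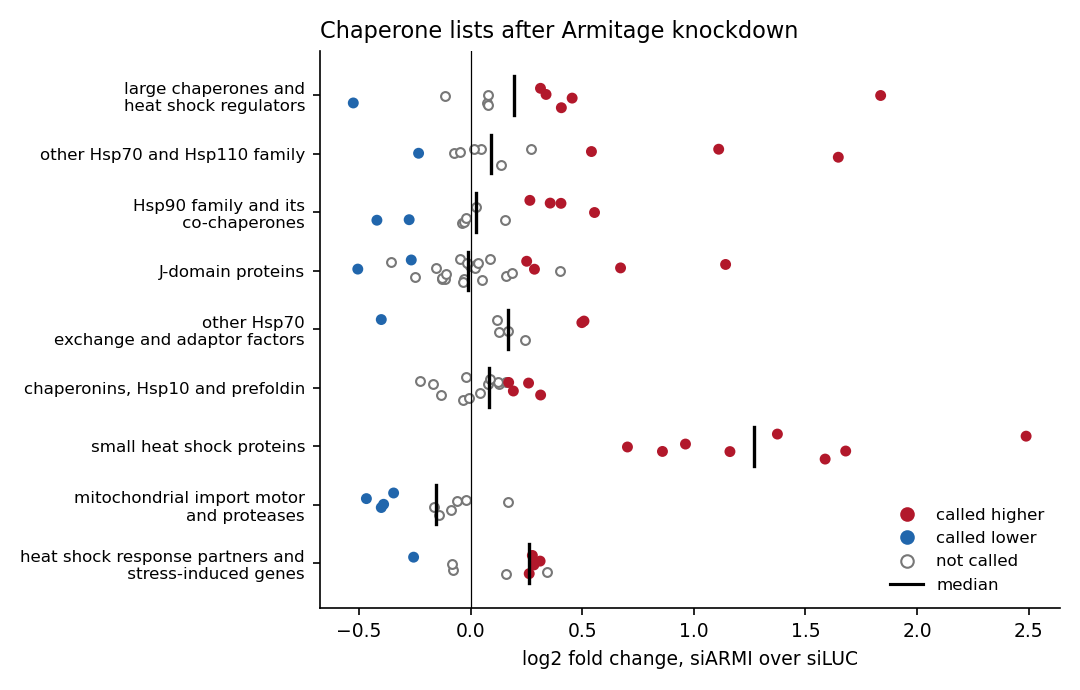
Log2 fold change of siARMI over siLUC for each row of the 10 genes and of the 8 chaperone lists, with filled points for called rows, open points for rows not called and a black bar for the median. The rows of the small heat shock protein list lie at 0.70 and above with a median of 1.27. The mitochondrial list has 4 rows called lower and none higher, and the other lists hold rows on both sides of 0 with medians from −0.01 to 0.26.

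After Yb knockdown none of the 10 genes passed the test. All had the same adjusted p of 1.00 when rounded, and in the authors' deposited table no unadjusted p of theirs was under 0.05. Of the 8295 gene rows tested there, 0.0723% were called, or 6 rows, and 46 rows (0.555%) had a raw p under 0.05, so a count of 0 among 10 genes is near that background. The median raw p of gene rows in the authors' deposited siYB table was 0.728. Evenly spread p-values would put more rows than that under 0.05, so few rows could be called. That none of the 10 passed does not show that Yb knockdown left them unchanged. The smallest p-values of the 10 in the authors' deposited table were 0.0998 for Hsp68, the 89th smallest of 8295, and 0.195 for stv, the 294th smallest. Those of the other 8 lay between 0.346 for Hsc70-4 and 0.998 for Stip1. The fold changes there had been shrunk to about 0, with an error of 0.00144 for each of the 10, so their size is no measure of the change and their sign is uncertain. None of the rows of the 8 lists was called in the siYB table, and Hsp60C alone had a raw p under 0.05, with 0.0482 on a mean count of 0.688 in the authors' deposited table.

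The mean counts of the siYB table were not shrunk, and give a size that its fold changes do not. The siLUC level implied by the siARMI table was brought to the scale of the siYB table, by the median over 1290 gene rows with a mean count of at least 1000, and the siYB level was obtained as the rest of the mean. This takes the siLUC libraries of both tables to be the same, as the design states. It was devised after the data were seen, gives no error and no test, and rests on the same siLUC values as the siARMI changes. It could be set beside the authors' deposited table for the 12 gene rows with a siYB estimate not shrunk to about 0, most of them large changes. The sign was the same in all 12, and the gap between implied and deposited value ran from 0.01 to 0.80 on the log2 scale, with a median of 0.23 and 3 gaps over 0.5. The closest was ex, at 2.23 implied and 2.23 ± 0.56 in the authors' deposited table, and the widest were NT5E-2 (2.15 implied, 1.35 ± 1.82 deposited) and Cda5 (3.58 implied, 2.78 ± 1.59 deposited). The other gap over 0.5 was that of the targeted gene fs(1)Yb, at −1.52 implied and −2.17 ± 0.51 in the authors' deposited table. The implied measure thus gave a smaller decrease for the targeted transcript than the deposited estimate. His2B:CG33870, a small change, had 0.21 implied and 0.71 ± 1.24 in the authors' deposited table. The transcript of armi, with a siYB p of 0.820 in the authors' deposited table, had an implied change of 0.32, the 50th highest of the 1290 gene rows, so a gene far from passing the test can stand above the 95th percentile of 0.28.

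On this measure the 10 genes spread from an implied log2 change of 0.70 for Hsp68 to −0.27 for Hsc70-4 in siYB over siLUC. Hsp68 had the 10th highest value of the 1290 gene rows and stv, at 0.61, the 15th highest. Both lie above the 95th percentile of those rows, which was 0.28. DnaJ-1 had 0.22, Droj2 0.17, Hsf 0.09, Hsp83 0.08, Stip1 0.06, Hsc70-5 −0.05 and Hsp60A −0.24, all between the 5th percentile of −0.268 and the 95th. Hsc70-4, at −0.272, lies just below the 5th. Hsp68 and DnaJ-1 met the count minimum of 1000 only through their level in siARMI cells. With a minimum of 200, Hsp68 ranked 45th and stv 62nd of 4326 gene rows. Side by side, Hsp68 had 1.84 in siARMI (called) and 0.70 in siYB (implied, not called), while stv had 0.08 in siARMI and 0.61 in siYB, called in neither. No difference between the knockdowns was tested, since the siYB values have no error.

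**Figure D5:**
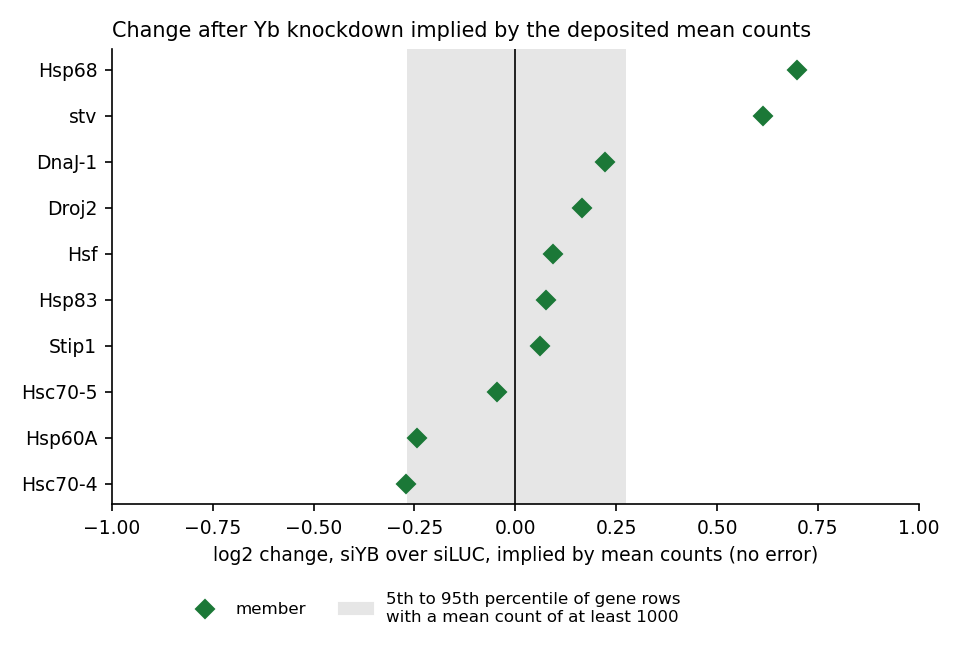
Log2 change of siYB over siLUC implied by the mean counts of both deposited tables for the 10 genes, in descending order and without error; the grey band is the 5th to 95th percentile of the 1290 gene rows with a mean count of at least 1000. Hsp68 at 0.70 and stv at 0.61 lie above the band, and Hsc70-4 at −0.27 lies just below its lower edge.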

How the data were processed

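Libraries of siARMI, siYB and siLUC cells (3 each) were compared through 2 deposited tables, 1 per knockdown. Salmon 1.7.0, STAR, Bowtie, HOMER, DESeq2 and edgeR are named in the submitters' processing notes without their roles, and per the file headers the columns follow DESeq2 output. The authors' genome build and annotation are not stated in what was read here. The deposited mean is a normalised count, a signal averaged over 6 libraries on a scale of each table's own. The deposited log2 fold changes had been shrunk toward 0: slightly for these genes in the siARMI table, where change over error was 0.973 to 1.04 times the normal quantile of the p-value, and to about 0 in 99.7% of siYB rows. The deposited p-value and its Benjamini-Hochberg adjusted value were used as listed, and recomputing the adjustment gave a largest difference of 3.64e-14. The summed mean counts were 6210715 in the siARMI table and 1642735 in the siYB table.

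A count test had been planned. With no values per library it could not be run, and library depth and its precision are unknown. Whether replicate libraries stem from separate cultures is not labelled, so the p-values reflect no more than the spread among these libraries, possibly a technical one. Sign was read as knockdown over siLUC from the targeted genes. Group means, a step added after the data were seen, were implied from mean count and fold change, taking 3 libraries per group and the shrunk fold change as the ratio of means. Exonic length is the union of exons in BDGP6.54 (Ensembl release 115), which may not be the authors' annotation. Intervals are at 95%, from the deposited error and the normal distribution. Python 3.11.15, pandas 2.3.3, numpy 2.4.6, scipy 1.17.1 and matplotlib 3.10.9 were used, and the adjustment and the test of differences were tested on simulated data. The simulated pairs were drawn at random with independent errors, unlike pairs set by the order of fold changes.

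All 10 genes are named. In each list the text names up to 2 called rows with the largest and up to 2 with the smallest fold change, and the 2 most abundant rows not called. Hsp70Bc and Hsp70Bbb are named as well, as copies of the Hsp70 genes called. The genes and lists were chosen with earlier results of these data known. Names that fit several RefSeq genes, and names without a row, were left out of the lists. Of 126 names asked for in the 8 lists, 97 rows were read in the siARMI table, Roe1 counted in both of its lists.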

Additional observations from a re-analysis of the deposited data

How the results depend on the processing

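The count of genes called after Armitage knockdown was 6 of 10. It stayed at 6 with an adjusted p under 0.01 or 0.1, with adjustment over gene rows only, over rows with a mean count of at least 10 or by Holm, and with fold changes re-centred on the median gene or on the count-weighted mean. These settings left little room for another count. In the authors' deposited table the Benjamini-Hochberg adjusted p was at most 3.72e-06 for the genes called and at least 0.180 for the rest. The count was 5 without Stip1, the gene matched through a synonym, a setting added after the data were seen. A minimum size of 0.5 for the log2 change, in either direction, left 2, Hsp68 and Hsp60A, and a minimum of 1 left 1, Hsp68, since such a minimum removes small changes by construction. After Yb knockdown the count stayed at 0 with an adjusted p under 0.1, an unadjusted p under 0.05 or rows with a mean count of at least 10. Each of the 10 fold changes kept its direction and its side of the threshold under both re-centrings. Of the 9 pairs of neighbours, 3 differed, and 4 did with errors correlated at 0.5, a setting that can only add pairs. The implied siYB changes, with a count minimum of 200 or 500 in place of 1000 (tried first, and added after the data were seen), moved by less than the deposited siARMI error of each gene, Hsp68 to 0.69 in both and stv to 0.60 and 0.61.

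No paired analysis was possible because the tables hold no value per library. For the same reason count tests, a replicate block and leaving out a replicate were not run. Lists without genes that share exact stretches with others, and heat shock elements in promoters, were not analysed here.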
